A study of Gallus gallus with 9 samples.

Results

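Tetraspanins are small membrane proteins that cross the cell membrane several times and gather integrins, membrane proteases and other receptors into shared patches of membrane. Several of them are carried on endosomes and on the vesicles that cells release. CD82 is best known in mammals as a suppressor of metastasis that binds integrins and growth factor receptors. Here the transcripts of CD82 and of the tetraspanins CD9, CD63, CD81, CD151, TSPAN3, TSPAN5, TSPAN6, TSPAN7 and TSPAN13 were followed in cultured chicken primordial germ cells (PGCs), the embryonic precursors of sperm and eggs, when basic fibroblast growth factor (bFGF) was taken away and given back. The members were the probe sets whose only annotated gene symbol was 1 of these 10 genes. This rule took 17 of 38439 probe sets, array controls aside, and these 17 covered 9 of the 10 genes. TSPAN5 was not analysed here because no probe set carried it as its single symbol.

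All PGCs were grown from whole blood of Korean Oge chicken embryos at embryonic day 2.5, in medium with serum. Cells of mixed-sex embryos were combined, so each array measures a mixed culture. The RAW group was collected at 0 h from cells kept with 10 ng/ml bFGF, the -bFGF group at 24 h after 24 h without bFGF, and the +bFGF group at 48 h, 24 h after bFGF had been replaced. Each group had 3 Affymetrix Chicken Genome arrays. The values are MAS5 intensities, a linear measure of brightness whose trimmed mean was 500.1 on every array, and brightness can be compared for 1 probe set across arrays but not between probe sets. The study states that experiments were repeated 3 times and refers to 3 samples of cultured PGCs. No source used here says whether the arrays of a group came from separate cultures. The p-values therefore measure the spread between these samples, which may be technical. Withdrawal is the comparison of -bFGF with RAW, replacement that of +bFGF with -bFGF, and the net change that of +bFGF with RAW. Withdrawal and replacement share the -bFGF arrays and are not independent of each other, and time in culture rises with the order of the groups and cannot be told apart from treatment in any of the comparisons.

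Arrays of the same group correlated at 0.988 to 0.991 over the log2 values of the tested probe sets. The array medians lay between 71.3 and 82.3, and the 95th percentile of 744 probe sets that target viruses or other foreign sequences and carry no chicken symbol, used as background, lay between 32 and 40.5. All 8 of the 8 germ cell markers with a probe set (10 were listed), DDX4 and DAZL among them, were above background on all 9 arrays. NANOG and POU5F3, also listed, had no probe set with a single symbol. This background lies below the array medians, so a gene can pass it at a low intensity. Of the markers of other cells, 0 of 6 erythroid, 1 of 4 thrombocyte, 2 of 7 leukocyte, 3 of 8 endothelial and 5 of 10 fibroblast and mesenchyme genes were above background on all arrays.

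CD82 changed in both comparisons, with little spread between arrays. Its intensities were 1038, 1036 and 1056 in RAW, 1448, 1447 and 1515 in -bFGF, and 870, 902 and 906 in +bFGF. No value was shared between the 3 groups: every -bFGF array lay above every RAW array, and every +bFGF array lay below both. The transcript rose on withdrawal to a mean of 1470 ± 39.1 in -bFGF, against 1043 ± 10.9 in RAW (SD, n = 3 each), a log2 change of 0.49 ± 0.06 (SE) or 1.41-fold (95% interval 1.28 to 1.55, limma adjusted p = 0.000186). After replacement it fell to 893 ± 19.7 in +bFGF, against 1470 ± 39.1 in -bFGF, a log2 change of -0.72 ± 0.06, which is 0.607 times the -bFGF level (95% interval 0.553 to 0.667, limma adjusted p = 5.99e-06). Among the 19220 tested probe sets this replacement change ranked 86 by p, and 97.5% of them changed by less. In bulk RNA of this kind, fewer cells carrying a transcript and less of it per cell cannot be told apart.

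The CD82 level after replacement was lower than the starting level on all 3 arrays, although the net change did not pass the test. It was -0.23 on the log2 scale (95% interval -0.36 to -0.09, unadjusted p = 0.00313, limma adjusted p = 0.0743). The order of the CD82 levels was thus -bFGF, RAW and +bFGF, and the last pair did not differ beyond the threshold. The call of both larger changes was kept with each of the 9 arrays left out, at adjusted p up to 0.00185 for withdrawal and up to 9.13e-05 for replacement. When a change larger than 1.2-fold was required by the test, the rise on withdrawal was not called (adjusted p = 0.0671). The study named CD82 from these same arrays, so its presence among the called genes is not independent evidence. CD82 was read by 1 probe set, GgaAffx.12050.1.S1_s_at, of a type whose probes may match more than 1 transcript. The CD9 probe set and the CD151 probe sets described below are of the same type.

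**Figure D1:**
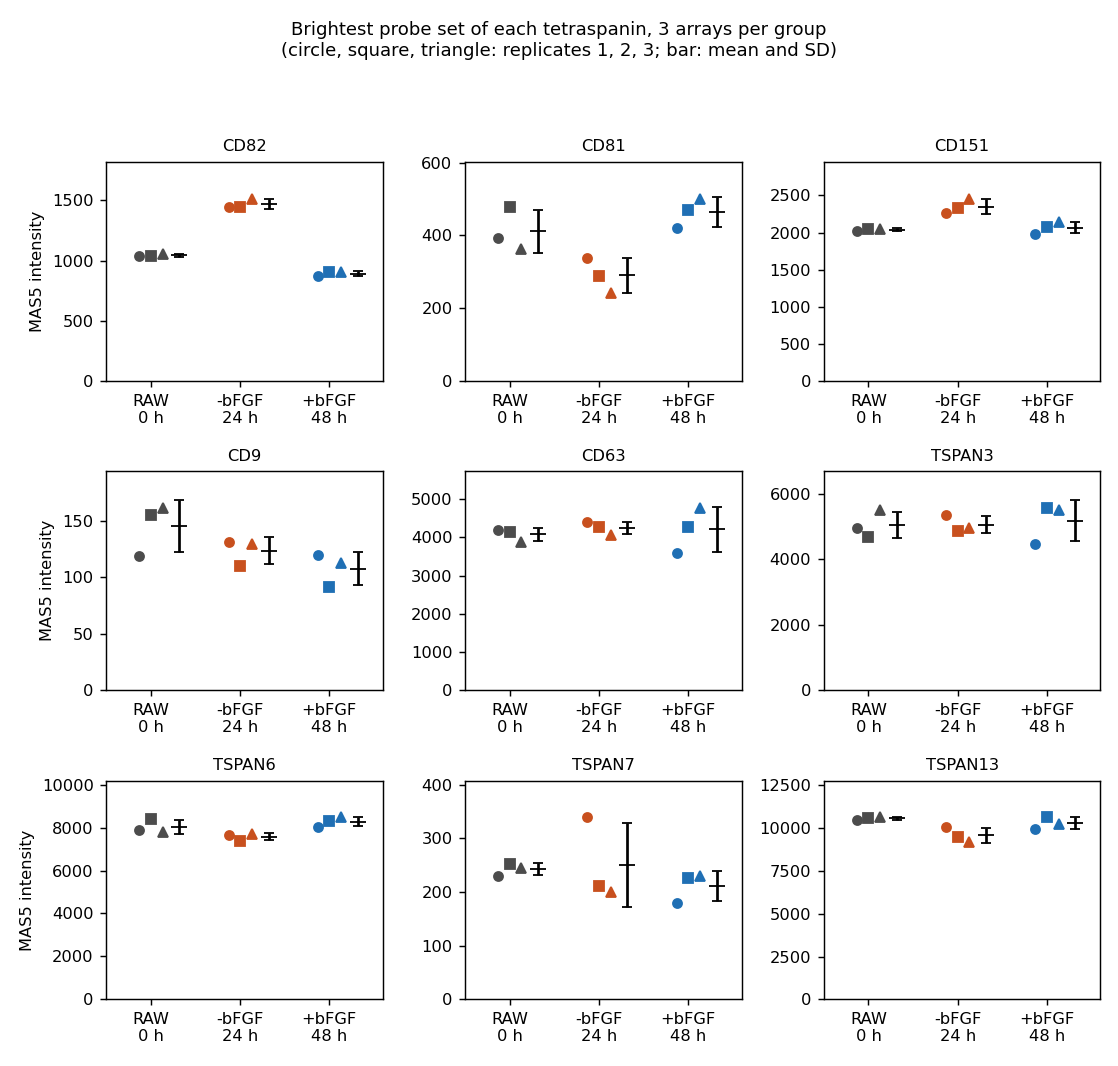
MAS5 intensity (linear axis from 0) of the brightest tested probe set of each of the 9 tetraspanins on every array, in RAW, -bFGF and +bFGF, with the mean and SD (n = 3) beside the points. CD82 peaks at 1447 to 1515 in -bFGF, and CD81 dips to 241 to 339 there. CD9, CD63, TSPAN3, TSPAN6, TSPAN13 and the TSPAN7 probe set drawn here have no called change.

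CD81, a tetraspanin that in mammals joins the B cell co-receptor and binds the immunoglobulin-like proteins IGSF8 and PTGFRN, moved the other way. Its brighter probe set, Gga.5167.1.S1_at, gave 392, 478 and 362 in RAW, 339, 290 and 241 in -bFGF, and 421, 470 and 501 in +bFGF. All -bFGF arrays lay below those of both other groups, which overlapped each other. CD81 fell on withdrawal to 290 ± 49 in -bFGF, against 411 ± 60.2 in RAW (SD, n = 3 each), a log2 change of -0.51 ± 0.14 (limma adjusted p = 0.0352). On replacement it rose to 464 ± 40.1 in +bFGF, against 290 ± 49 in -bFGF, a log2 change of 0.69 ± 0.14 or 1.61-fold (95% interval 1.31 to 1.99, limma adjusted p = 0.00851). RAW and +bFGF did not differ beyond their spread (net log2 change 0.18, 95% interval -0.12 to 0.49, adjusted p = 0.54).

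The rise of CD81 on replacement was called with each of the 9 arrays left out (adjusted p up to 0.0432), but its fall on withdrawal was not. Without RAW replicate 1 or 2, or without -bFGF replicate 2 or 3, the adjusted p of the fall was 0.0698, 0.147, 0.0867 and 0.134. The second CD81 probe set, Gga.16553.1.S1_at, was dimmer, at 88.8 to 165 over all arrays. Its groups overlapped in both comparisons, and its log2 changes of -0.34 on withdrawal and 0.42 on replacement were not called (adjusted p = 0.341 and 0.278).

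CD151, a tetraspanin known for its firm binding to laminin-binding integrins, was read by 2 probe sets. The brighter, Gga.5426.3.S1_s_at, gave 2015, 2052 and 2049 in RAW, 2259, 2326 and 2458 in -bFGF, and 1987, 2075 and 2144 in +bFGF. Every -bFGF array lay above those of both other groups, and RAW and +bFGF overlapped. It rose on withdrawal to 2348 ± 101 in -bFGF, against 2039 ± 20.3 in RAW (SD, n = 3 each), a log2 change of 0.20 ± 0.06 or 1.15-fold (limma adjusted p = 0.0407). Its replacement change of -0.18 was not called (adjusted p = 0.0827). The call on withdrawal was lost with 7 of the 9 arrays left out in turn (all but +bFGF replicates 1 and 3), at adjusted p up to 0.148, and with each array centred on its 75th percentile (adjusted p = 0.0664). The second probe set, Gga.5426.2.S1_s_at, had a withdrawal log2 change of 0.03 (95% interval -0.14 to 0.20, adjusted p = 0.852) and a replacement change of -0.20 (adjusted p = 0.167).

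TSPAN7, known in mammals as a neuronal tetraspanin, was read by 4 probe sets that did not move together. Only Gga.9700.2.S1_a_at was called, and it was dim, at 93.4, 82.3 and 60.4 in RAW, 142, 107 and 153 in -bFGF, and 88.5, 92.4 and 79.5 in +bFGF. Its -bFGF arrays lay above the other 6 arrays. It rose on withdrawal to 134 ± 23.9 in -bFGF, against 78.7 ± 16.8 in RAW (SD, n = 3 each), a log2 change of 0.78 ± 0.22 (95% interval 0.29 to 1.26, limma adjusted p = 0.0423). Its replacement change of -0.61 was not called (adjusted p = 0.133). The withdrawal call was lost without RAW replicate 2 or 3, -bFGF replicate 1 or 3 or +bFGF replicate 2, at adjusted p of 0.0537 to 0.15.

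The other TSPAN7 probe sets gave no call. The brightest, Gga.9700.1.S1_at, had a withdrawal log2 change of 0.00 (95% interval -0.40 to 0.40), and its highest value, 339.9 in -bFGF replicate 1, stood apart from 211 and 201 on the other 2 arrays of that group. Gga.9700.4.S1_a_at had a withdrawal change of 0.16 (95% interval -0.32 to 0.63). The dimmest, Gga.9700.3.S1_at, lay below the filter and was not tested. It read 14.4, 5.84 and 10.1 in -bFGF, against 44.7, 30.1 and 33.6 in RAW, lower without overlap where Gga.9700.2.S1_a_at was higher, and it was above background on 1 of the 9 arrays.

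**Figure D2:**
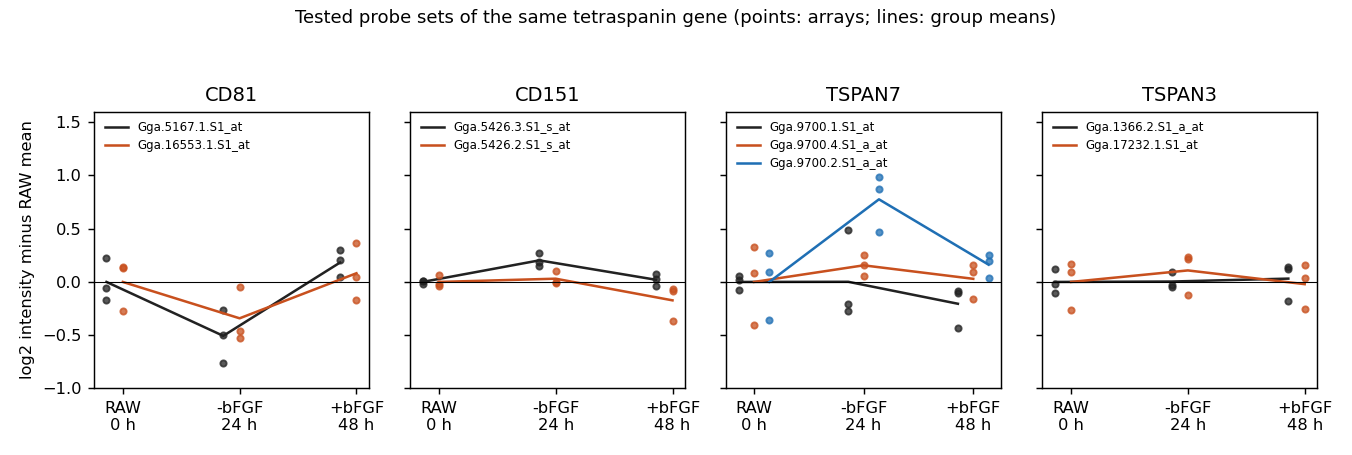
log2 intensity of each tested probe set of CD81, CD151, TSPAN7 and TSPAN3, minus its own RAW mean, on every array, with lines through the group means. Both CD81 probe sets dip in -bFGF, whereas 1 of the 3 tested TSPAN7 probe sets rises there by 0.78 and the others by 0.16 and 0.00.

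The remaining 5 members were not called in any comparison. CD63, which marks late endosomes and released vesicles, ranged from 3891 to 4208 in RAW, from 4068 to 4401 in -bFGF and from 3589 to 4776 in +bFGF. Its log2 change was 0.06 on withdrawal (95% interval -0.13 to 0.24) and -0.02 on replacement (95% interval -0.20 to 0.16), and the changes seen for CD82 lay outside both intervals. TSPAN3, a tetraspanin found with claudin-11 in mammalian glia, changed by 0.00 on withdrawal (95% interval -0.18 to 0.19) and by 0.03 on replacement (95% interval -0.16 to 0.21) on Gga.1366.2.S1_a_at. Its second tested probe set, Gga.17232.1.S1_at, was dimmer and changed by 0.11 and -0.13.

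TSPAN6 and TSPAN13 shifted little on withdrawal, but their -bFGF and RAW arrays did not overlap. TSPAN6 gave 7889, 8400 and 7802 in RAW, 7660, 7392 and 7695 in -bFGF, and 8035, 8308 and 8487 in +bFGF. Its -bFGF arrays were below all other arrays, but the log2 changes of -0.08 on withdrawal and 0.13 on replacement were not called (adjusted p = 0.336 and 0.169). TSPAN13 gave 10483, 10568 and 10629 in RAW, 10053, 9495 and 9195 in -bFGF, and 9951, 10616 and 10252 in +bFGF. Its withdrawal change of -0.14 (95% interval -0.25 to -0.03) missed the threshold at an adjusted p of 0.0924, and the +bFGF arrays overlapped those of both other groups.

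CD9, the tetraspanin of the mouse egg that sperm fusion depends on, was dim and had the widest interval of the single-probe-set members. It read 119, 155 and 161 in RAW, 131, 110 and 129 in -bFGF, and 119, 91 and 113 in +bFGF, with overlap between all groups. Its net log2 change was -0.43 (95% interval -0.84 to -0.02, unadjusted p = 0.0404, adjusted p = 0.257). The probe sets GgaAffx.1801.1.S1_at for TSPAN3, at 51 to 89, and GgaAffx.23331.1.S1_at for TSPAN13, at 2.65 to 51.6, lay below the filter and were not tested. The filter required a mean log2 value of at least 6.18, or an intensity of about 72.4, and kept 14 of the 17 probe sets.

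Over the whole group, 3 of the 14 tested probe sets rose on withdrawal (CD82, CD151 and TSPAN7), against 5.4% of the 19220 tested, and 1 fell (CD81), against 5.33%. On replacement 1 rose (CD81), against 3.37% of all tested, and 1 fell (CD82), against 3.42%. For the net change 0 rose and 0 fell by limma, against 1.14% and 1.74% of all tested, and 2 of the 14 (CD82 and CD9) had an unadjusted p under 0.05, against 3430 of the 19220 (17.8%). The median log2 change of the 14 was 0.02 on withdrawal, beside 0.02 for all tested probe sets, and -0.13 on replacement, beside -0.02 for all tested. As the members were put together with results of these arrays known, these shares describe them and carry no test.

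The groups did not overlap for 6 of the 14 tested probe sets on withdrawal, against 31.4% of all tested. The same count on replacement was 6 of 14, against 25.5%, and for the net change it was 3 of 14 (CD82, CD151 Gga.5426.2.S1_s_at and TSPAN7 Gga.9700.1.S1_at), against 22.1%. Under the criteria given in the study's methods, a lower bound of the 90% interval of the fold above 1.2 and a difference of the means above 50, 2 of the 17 probe sets were called on withdrawal (CD82 and TSPAN7 Gga.9700.2.S1_a_at), against 3.42% of all 38439. On replacement CD82 and CD81 were called, 2 of 17, against 2.68%. Applied here to MAS5 values, these criteria called 1314 probe sets on withdrawal and 1031 on replacement. The study, which used dChip, reported fewer changed transcripts in both comparisons, so calls made here need not be calls of the study.

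**Figure D3:**
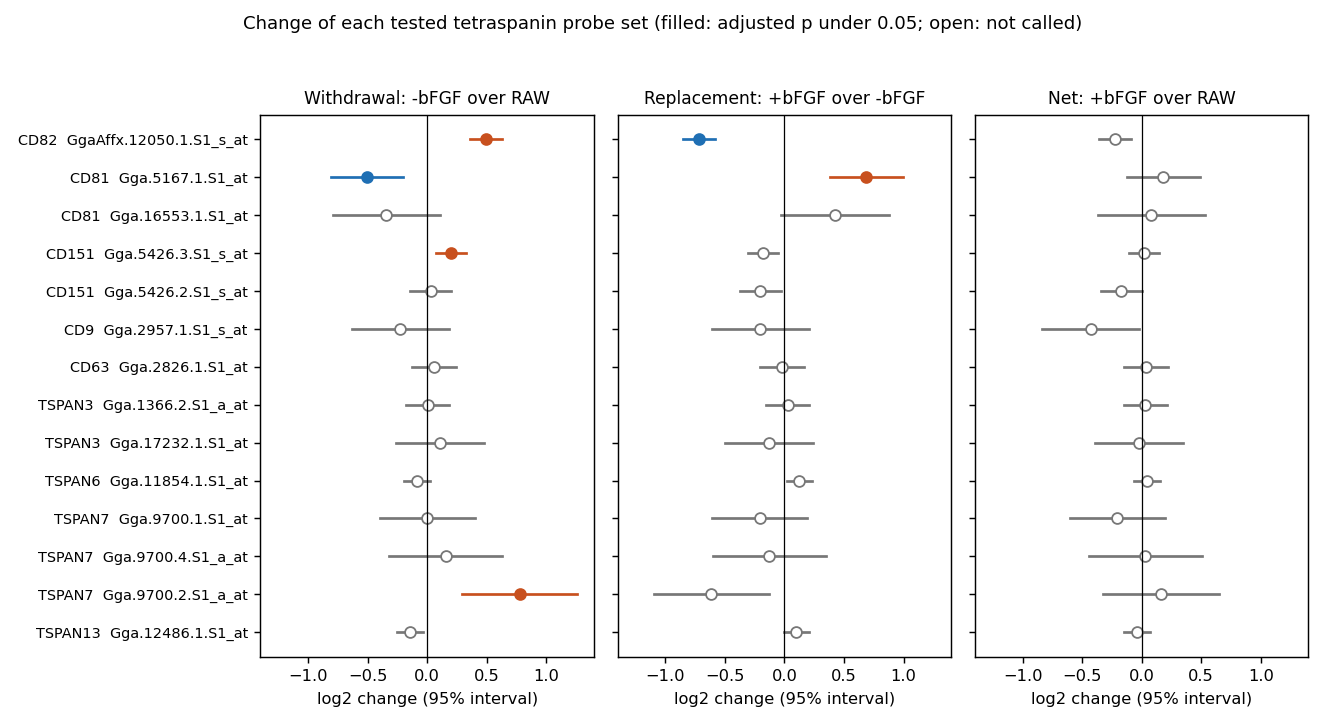
log2 change with its 95% interval for the 14 tested tetraspanin probe sets on withdrawal (-bFGF over RAW), replacement (+bFGF over -bFGF) and net (+bFGF over RAW), filled where the adjusted p was under 0.05. The 6 filled points are CD82 (0.49 and -0.72), CD81 (-0.51 and 0.69), CD151 (0.20) and TSPAN7 (0.78), and the net panel has none.

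**Figure D4:**
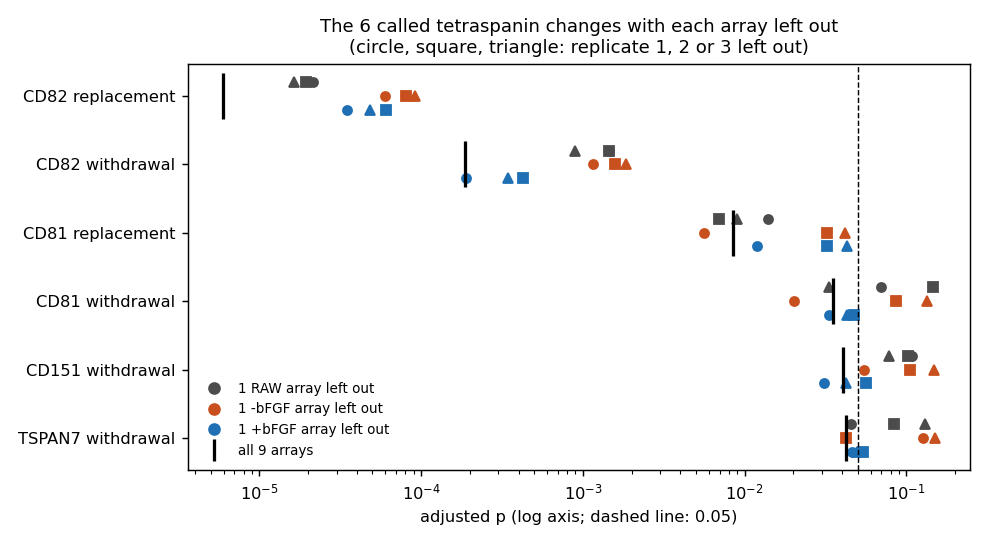
Adjusted p (log axis) of the 6 called tetraspanin changes with all 9 arrays (black bars) and with each array left out, coloured by the group of the array left out. Both CD82 changes and the CD81 replacement change stay left of the 0.05 line, and the CD81, CD151 and TSPAN7 withdrawal changes lie on both sides of it.

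No other tetraspanin was called in these cells. Of 23 further family members, 14 had a probe set and 7 were tested on their brightest probe set (TSPAN1, TSPAN4, TSPAN9, TSPAN12, TSPAN14, TSPAN15 and TSPAN17). By limma 0 of the 7 rose and 0 fell in either comparison, with 1 at an unadjusted p under 0.05 on withdrawal and 0 on replacement. Among all 9125 genes tested this way 6.83% rose and 5.99% fell on withdrawal, and 4.02% rose and 4.21% fell on replacement, with 28.4% and 22.3% at an unadjusted p under 0.05. The log2 changes of the 7 brightest probe sets lay between -0.18 and 0.10 on withdrawal and between -0.21 and 0.15 on replacement. Dimmer probe sets moved further without a call: one for TSPAN4 changed by 0.60 on replacement, where +bFGF lay above -bFGF without overlap (unadjusted p = 0.0105, adjusted p = 0.101), and one for TSPAN9 by -0.45 on withdrawal (adjusted p = 0.208). CD81, CD82 and CD151 each have another tetraspanin gene beside them in the newer RefSeq gene table (assembly GRCg7b). TSPAN32 is the next gene to CD81, and 1 gene lies between CD82 and TSPAN18 and 1 between CD151 and TSPAN4. TSPAN32 and TSPAN18 lay below the filter and were not tested, and the brightest TSPAN4 probe set was not called (withdrawal log2 change 0.06, adjusted p = 0.802).

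Membrane proteins that tetraspanins gather were also examined, as a list of 20 integrin chains, proteases and adhesion molecules of which 16 were tested. On withdrawal 1 of the 16 rose, against 6.83% of all genes, and 2 fell, against 5.99%. On replacement 1 rose, against 4.02%, and 2 fell, against 4.21%. An unadjusted p under 0.05 was found for 31.2% on withdrawal, against 28.4% of all genes, and for 37.5% on replacement, against 22.3%. The list's median log2 change was 0.00 on withdrawal, beside 0.03 for all genes, and -0.06 on replacement, beside -0.02 for all genes. The hyaluronan receptor CD44 gave 107, 103 and 88.9 in +bFGF, against 176, 133 and 194 in -bFGF, and fell on replacement by 0.74 on the log2 scale (adjusted p = 0.0349). Its withdrawal change of 0.52 was not called (adjusted p = 0.103). The other CD44 probe sets lay below the filter and were not tested, and on each of them the -bFGF and +bFGF arrays overlapped. The tight junction protein CLDN1 moved like CD81: it gave 34969, 32973 and 32570 in -bFGF, against 40008, 41359 and 44284 in RAW, a log2 change of -0.32 (adjusted p = 0.0017), and on replacement it rose by 0.29 (adjusted p = 0.00435).

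ZDHHC2, a palmitoyltransferase that acts on CD9 and CD151 in human cells, rose on withdrawal to 1383 ± 95.8 in -bFGF, against 1150 ± 94.4 in RAW (SD, n = 3 each; log2 change 0.27, adjusted p = 0.0452). ITGB1, the integrin beta chain shared by the laminin receptors that CD151 binds, fell on withdrawal by 0.23 on the log2 scale (adjusted p = 0.0242), while its dimmer probe set changed by -0.13 (adjusted p = 0.223). Both probe sets of ITGA6, an alpha chain of those receptors, fell on replacement, by 0.20 and 0.31 (adjusted p = 0.0205 and 0.00631). On withdrawal they were not called (-0.02 and 0.02), and their net changes of -0.22 and -0.28 were called (adjusted p = 0.0216 and 0.0235). ITGA6 was named after its values were seen. ITGA3, the other laminin-binding alpha chain on the list, was not called. With each array left out in turn, both CLDN1 calls held, as did that of the dimmer ITGA6 probe set (adjusted p up to 0.0339), whereas those of CD44, ZDHHC2, ITGB1 and the brighter ITGA6 probe set were lost with 5, 7, 4 and 4 of the 9 arrays (adjusted p up to 0.152, 0.168, 0.111 and 0.0918). CD44 lost its call without -bFGF replicate 1 or 3 or any +bFGF array, and the brighter ITGA6 probe set when replicate 1 or 2 of -bFGF, or replicate 2 or 3 of +bFGF, was dropped. ITGB1 lost it without replicate 1 or 2 of RAW or of -bFGF, and ZDHHC2 kept it only without RAW replicate 3 or +bFGF replicate 1.

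Of 20 genes for extracellular vesicles and endosomes, which carry CD9, CD63 and CD81 in many cells, 17 were tested. On withdrawal 3 rose and 0 fell, against 6.83% and 5.99% of all genes, and on replacement 0 rose and 1 fell, against 4.02% and 4.21%. An unadjusted p under 0.05 was found for 7 of the 17 on withdrawal (41.2%, against 28.4% of all genes). On replacement the share was 35.3%, against 22.3%. The list was chosen with results of these arrays known, so these shares describe it and carry no test. The median log2 change of the list was 0.04 on withdrawal and -0.08 on replacement. ANXA2, a membrane-binding annexin found on vesicles, gave 9958, 9411 and 9501 in -bFGF, against 6455, 6199 and 6299 in RAW, and rose by 0.61 (adjusted p = 2.53e-06). On replacement ANXA2 fell by 0.33 (adjusted p = 0.000664), and its second tested probe set was also called in both comparisons (0.51 and -0.31). ANXA2 remained above RAW after replacement, with a net log2 change of 0.28 (adjusted p = 0.0078). The net change of its second probe set, 0.20, was not called (adjusted p = 0.0995). LAMP2, a lysosomal membrane protein, rose on withdrawal by 0.41 on its brightest probe set (adjusted p = 0.0122) and was not called on its 3 other tested probe sets. The heparan sulphate proteoglycan SDC1, which enters vesicles with syntenin, rose on withdrawal by 0.27 (adjusted p = 0.0477). Both ANXA2 calls held with each array left out, while that of LAMP2 was lost without RAW replicate 1 or 2 or -bFGF replicate 3 (adjusted p up to 0.0564) and that of SDC1 with 6 of the 9 arrays left out in turn (all but RAW replicate 1 and +bFGF replicates 1 and 3, adjusted p up to 0.175).

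**Figure D5:**
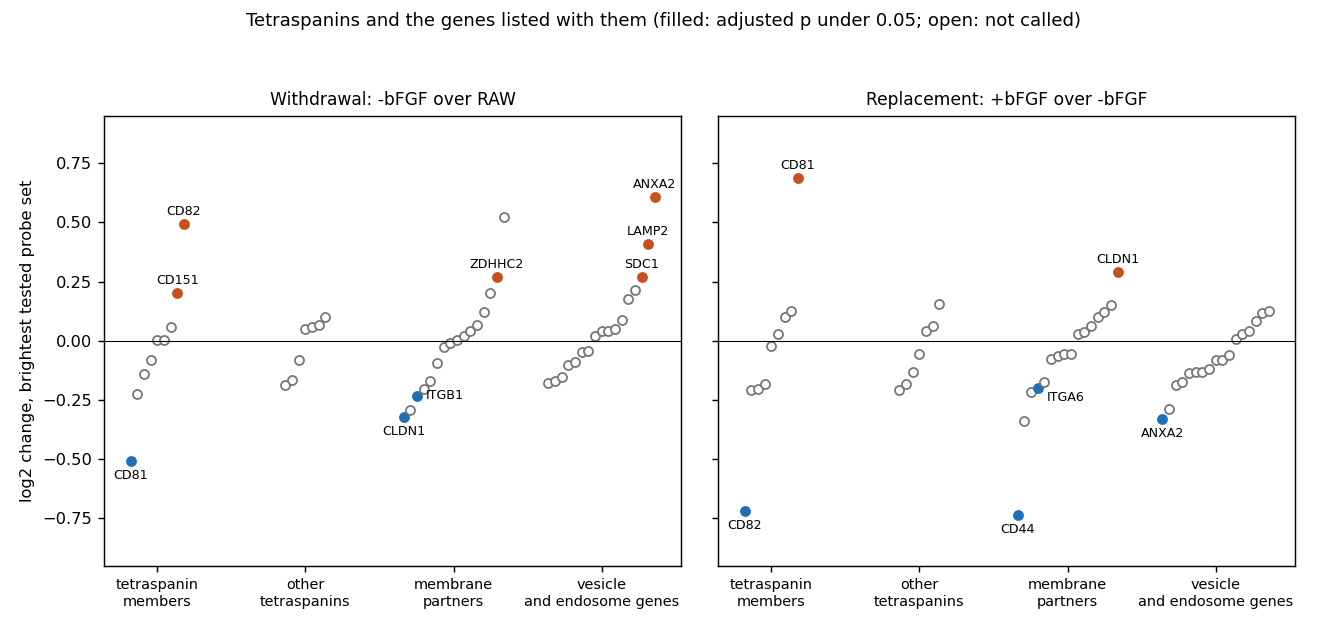
log2 change of the brightest tested probe set of each gene on withdrawal (left) and replacement (right), for the tetraspanin members, the other tetraspanins, the membrane partners and the vesicle and endosome genes; named, filled points had an adjusted p under 0.05. None of the 7 other tetraspanins is filled, and CD82 and CD81 are the outermost members in both panels.

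The genes whose pattern was most like that of CD82 were sought among 9124 other genes by the Pearson correlation of log2 values over the 9 arrays, as a description without a test, since the arrays fall into 3 groups and genes with the same order of group means score highly. The nearest was FRMD4B, a scaffold protein with a FERM domain (r = 0.989), followed by the tubulin TUBB1 (r = 0.989), the thyroid hormone-inactivating deiodinase DIO3 (r = 0.987), the laminin chain LAMA1 (r = 0.985) and the growth factor PDGFA (r = 0.983). All of them were high in -bFGF. DIO3 averaged 328 ± 32.1 in RAW, 1060 ± 55.1 in -bFGF and 247 ± 25 in +bFGF (SD, n = 3 each). PDGFA averaged 763 ± 39 in RAW, 2204 ± 216 in -bFGF and 586 ± 47.9 in +bFGF. Changes of DIO3, 1.70 on withdrawal and -2.10 on replacement, and of PDGFA, 1.53 and -1.91, were larger than those of CD82. Those of TUBB1, 0.65 and -1.06, and FRMD4B, 0.63 and -0.91, were nearer to them. Those of LAMA1, 0.56 and -0.69, were the nearest of these genes. By Spearman correlation TUBB1 (0.983) and DIO3 (0.967) came before the other 3 (0.867 each), and the ranks were 3.5 for TUBB1, 9.5 for DIO3 and 119 for FRMD4B, LAMA1 and PDGFA (of 9124 genes, mean rank for tied values). Among the members, the Pearson correlation with CD82 was 0.871 for CD151, -0.884 for CD81, -0.804 for TSPAN6 and -0.703 for TSPAN13. By Spearman correlation these were 0.683, -0.833, -0.783 and -0.4. For CD9, CD63, TSPAN3 and TSPAN7 the Pearson correlation lay between -0.041 and 0.290.

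Some technical and cell type measures moved with the same comparisons. The log2 ratio of the 3' to the 5' control probe set of actin, a measure of RNA integrity, was 0.622 to 0.733 in RAW, 0.702 to 0.779 in -bFGF and 0.334 to 0.587 in +bFGF, so that +bFGF lay below both other groups. For GAPDH it was -0.177 to -0.143 in -bFGF, against -0.069 to -0.054 in RAW, and overlapped between +bFGF and -bFGF. The summed intensity of the 10 fibroblast and mesenchyme markers was 7741 to 8871 in RAW, 5832 to 6099 in -bFGF and 6591 to 7709 in +bFGF. Most of that drop lay in COL1A2, which had log2 changes of -3.18 and 2.82: without it the sum was 5405 to 6243 in RAW, 5581 to 5821 in -bFGF and 4912 to 5591 in +bFGF. Of the 5 tested markers, 4 fell and 0 rose on withdrawal by their brightest probe sets, against 5.99% and 6.83% of all genes. On replacement 1 (COL1A2) rose and 0 fell, against 4.02% and 4.21%. The median log2 change of the 5 tested markers was -0.53 on withdrawal, beside 0.03 for all genes, and 0.21 on replacement, beside -0.02. FN1 changed by -0.40 on withdrawal (adjusted p = 0.0255) and by -0.30 on replacement (adjusted p = 0.108), while COL3A1 changed by 0.06 and -0.15 (adjusted p = 0.623 and 0.269). Of these markers DCN, LUM, PDGFRA, POSTN and TWIST1 were not above background on all arrays. The endothelial marker sum was 423 to 466 in RAW, 280 to 330 in -bFGF and 353 to 445 in +bFGF. CDH5, KDR, LYVE1, TEK and TIE1 were not above background on all arrays. Of the 2 tested, EGFL7 fell on withdrawal by 1.12 (adjusted p = 0.00279), while PECAM1 changed by 0.05 (adjusted p = 0.907). On replacement EGFL7 rose by 0.77 (adjusted p = 0.0343), a call lost with 5 of the 9 arrays left out in turn, and PECAM1 changed by -0.14. The dimmer tested EGFL7 probe set was called in both comparisons (-1.13 and 1.06). The dim thrombocyte marker sum was 207 to 240 in RAW, 116 to 192 in -bFGF and 138 to 218 in +bFGF. ITGB3, its only tested gene, was not called on withdrawal (log2 change -0.20, adjusted p = 0.694). The erythroid sum was 250.48 to 332.75 in RAW and 154.76 to 250.52 in -bFGF. The leukocyte sum was 408.08 to 435.5 in RAW and 341.87 to 413.99 in -bFGF. Both overlapped. The germ cell marker sum, in which the bright DAZL and DDX4 weigh most, was 90024 to 94119 in RAW, 77439 to 89639 in -bFGF and 83944 to 90373 in +bFGF. Of its 8 tested genes 0 rose and 2 fell on withdrawal, against 6.83% and 5.99% of all genes. These were DAZL (log2 change -0.27, adjusted p = 0.0342) and ITGB1 (-0.23, adjusted p = 0.0242). KIT (0.12), TDRD9 (0.10) and PIWIL1 (0.08) shifted upward without a call. DDX4 (-0.16, adjusted p = 0.103), PRDM1 (-0.12) and ITGA6 (-0.02) shifted downward without a call. On replacement 0 rose and 1 fell (ITGA6), against 4.02% and 4.21%. Whether these shifts had a part in the changes of CD82, CD81 and the other members was not tested.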

How the data were processed

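Gene transcription was measured on 9 Affymetrix Chicken Genome arrays, 3 each of RAW, -bFGF and +bFGF, grouped by their labels. The deposited intensities were made by the authors with MAS5 (version not given in the sources used here) and are linear. The authors' own comparisons used dChip. Intensities were taken to log2 with no offset. In limma 3.58.1 under R 4.3.3, all 9 arrays entered 1 model of group means whose variances followed intensity. Probe sets whose mean log2 value was at or above the median were tested (19220 of 38439) in 2-sided tests, with Benjamini-Hochberg adjustment within each comparison and calls at 0.05. The fit was also run on simulated data with independent normal noise, which checks the calculation but not the form or source of the spread between the real arrays. The number of arrays, 3 per group, limits the precision.

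Symbols came from the supplied probe set annotation, and 9 of 9 member gene IDs had the same symbol in the RefSeq gene table. Lists were counted on the brightest tested probe set of each gene. Members and lists were chosen with earlier results of these data known. Named were all member probe sets, up to 4 called genes per list with the largest changes, and the 5 genes most like CD82. Alternatives were other filters, normalizations, an offset of 50, no trend, 2-group fits, a replicate block, a 1.2-fold test, an adjusted p of 0.1, single arrays left out and the study's criteria on linear values.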

Additional observations from a re-analysis of the deposited data

How the results depend on the processing

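Of 117 values recomputed for the 6 called member changes under the alternatives, 33 lost the call. The direction was kept in all 117, but in many of them it could not move. The filters, the trend setting, 2-group fits, the replicate block, the 1.2-fold test and the threshold of 0.1 leave the log2 change itself unaltered. So does leaving out an array of the group not compared. Among 702 recomputed values of the 36 uncalled changes, 4 gained a call and 32 changed sign without a call. CD82 lost its withdrawal call only in the test against a 1.2-fold change (log2 change 0.49, adjusted p = 0.0671), and its net change of -0.23 was called with the filter at the 75th percentile (adjusted p = 0.0493) and at an adjusted p threshold of 0.1. With 1 array left out the CD82 changes were 0.47 to 0.51, -0.73 to -0.70 and -0.24 to -0.21 for withdrawal, replacement and net. The count of risen members on withdrawal, 3, became 2 with the 75th percentile filter, with centring on the 75th percentile and with no intensity trend. It was also 2 in the 2-group fits and under the study's criteria. It became 1 without a filter, 1 with the replicate block, 0 in the 1.2-fold test, and 1 to 3 with 1 array left out. The count of fallen members on withdrawal, 1, became 0 without a filter, with the 75th percentile filter, with no intensity trend, with the replicate block, in the 1.2-fold test and under the study's criteria, 2 at a threshold of 0.1, and 0 to 1 with 1 array left out. On replacement the 1 risen member became 0 with the 75th percentile filter, which removes CD81, and in the 1.2-fold test, and the 1 fallen became 2 at a threshold of 0.1. The net count of fallen members became 1 with the 75th percentile filter and at 0.1. On withdrawal the 75th percentile filter also removes CD81 from the fallen members and the called TSPAN7 probe set from the risen ones. CD82 and CD151 stayed called as risen under it. Causes of the other moves were not tested.

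No pairing by replicate number was visible in the arrays. Deviations of same-numbered arrays from their group means correlated at -0.213 to 0.061, with 0 of 9 pairs over 0.1. For arrays with other numbers the range was -0.146 to 0.167. With 3 arrays per group, these values cannot show whether same-numbered arrays came from the same culture. The replicate block cannot alter the size of a change, as each group holds every replicate number. With it, CD82 kept both calls (limma adjusted p = 0.000939 on withdrawal and 6.43e-05 on replacement), and 1 member rose and 0 fell on withdrawal. Calls over all probe sets were 1642 on withdrawal and 1045 on replacement, beside 2063 and 1304. Centring on the 75th percentile gave 806 risen and 476 fallen probe sets on replacement, beside 647 and 657, and moved the median change by under 0.1. Counted on any tested probe set, fallen partner genes on replacement were 3 with CD47 and fallen vesicle genes 2 with PDCD6IP. The single ZDHHC2 rise among the partners was lost in 14 of 20 alternatives, 7 of them with 1 array left out, and the counts of fallen partners moved by over 1.5 times in 9 of 21 on withdrawal and 14 of 21 on replacement (4 and 6 with 1 array left out). Dim probe sets limit CD9, TSPAN7, CD44 and the second CD81 reading.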
